A study of Mus musculus with 38 samples.

Results

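The mitochondrial carrier family Slc25 was followed at the level of its transcription start sites in the soleus muscle of mice before, during and after fasting-induced torpor. A start-site cluster was taken as a member when its peak lay within 500 bp, on the same strand, of an annotated 5′ end (GENCODE vM21, mm10) of a protein-coding gene whose symbol begins with Slc25a. This gave 30 clusters of 30 genes, 1 cluster per gene, among the 10819 clusters of the table. The other 17 of the 47 annotated family genes had no cluster in the table, among them Slc25a13 (the citrin form of the aspartate/glutamate carrier), Slc25a37 (mitoferrin-1) and Slc25a31 (the ADP/ATP carrier of the testis). The 30 peaks all lay within 100 bp of the annotated 5′ end, 19 of them within 10 bp, and no other gene had a 5′ end in any of the windows. The clusters were 119 to 777 bp wide, with a median of 290.5 bp against 281 bp over the whole table.

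Carriers of this family sit in the inner mitochondrial membrane, where each moves a set of solutes between cytosol and matrix, most often by exchange of one solute for another. Together they pass ADP in and ATP out, bring in phosphate for ATP synthesis and acylcarnitines for fatty acid oxidation, run the shuttles that carry reducing equivalents, and supply the matrix with cofactors, nucleotides, amino acids and metals. A few members sit elsewhere, such as Slc25a17 in peroxisomes and Slc25a46 in the outer mitochondrial membrane.

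The libraries were made by nAnT-iCAGE, which sequences the capped 5′ ends of RNA without amplification, with 1 library per mouse. All mice were male C57BL/6J. The first run held 28 libraries. Pre mice (4 libraries) were fed freely and sampled on day 1. Mid mice (8) had food withdrawn at low ambient temperature and were sampled on day 2, in the hours when torpor is usual. The study reports that their metabolic rates at sampling varied widely, some mice being torpid and others between bouts of torpor. Post mice (4) were given food again and sampled on day 3. HiT mice (4) were fasted at high ambient temperature, Fed mice (4) kept their food at low ambient temperature, and Dep mice (4) were fasted but touched gently whenever their oxygen use dropped, so that they did not enter torpor. By the study's account, the metabolic level of Dep mice was like that of the Mid mice that were not torpid when sampled. For HiT and Fed the sources conflict on food (the Fed samples carry the label starvation, and the series text gives food to HiT), and the account in the study's methods was followed. The second run held 2 Pre, 5 Mid and 3 Post libraries of other mice. Mid and Pre differ in food, day and torpor together, which cannot be told apart in that comparison. Per the study's methods, ambient temperature did not change within an experiment. HiT and Pre therefore differ at least in food and ambient temperature together, and Dep and Pre in food, day and touching. These cannot be told apart either.

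Levels are given as CPM, the tag count of a cluster relative to the total of all clusters in its library after TMM scaling (which sets aside the most abundant and most changed clusters), computed within each run. Since a capped RNA gives 1 tag whatever its length, levels can be set side by side between genes. Levels were not compared between the runs, which were scaled apart. Overlap between libraries was judged on CPM and so rests on the TMM factors. TPM, given where named, scales the tags to each library's total alone. Libraries held 18257657 to 39176649 tags in clusters in the first run and 9359994 to 20914855 in the second, and the lowest count of any member in any library was 23. Fewer cells of a type and less RNA per cell cannot be told apart in these whole-muscle samples. Slow and fast fiber markers were high in every library, and of the brown adipocyte markers Ucp1 and Elovl3 had no cluster. Mid 6 and HiT 4 stood apart, with 31.5 and 40.3% of their tags in the 10 highest clusters and the lowest scaling factors of their groups (0.830 and 0.679). By marker sums, Dep 1 stood apart in the first run for neutrophils (133 CPM, against 1.56 or less) and Fed 2 for red blood cells (13756, against 2814 to 5023 in the other Fed libraries).

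Promoter sequence was read for the members the results turn on, to show where these RNAs start. In RefSeq's promoter table (GRCm38.p6, the assembly of mm10; 250 bases before to 50 after each start) 23 of the 30 genes were found. Over the 4755 clusters of the table whose peak lay well inside such a window, the pair of bases ending at the deposited peak was a pyrimidine followed by a purine, the usual initiator pair, in 22.7%, whereas the pair 2 bases further downstream was so in 78.3%. For the Slc25 clusters this was 9 and 17 of 20. The sequences below therefore mark in capitals the pair of bases that ends 2 bases downstream of the deposited peak. Each runs from about 80 bases before that point to 9 or fewer after it, read along the gene from 5′ to 3′, and so covers the promoter and the first bases of the first exon. The first 5 belong to clusters that were higher in Mid than in Pre, the next 3 to clusters that were lower, and the last to the cluster with the highest level in the family.
Slc25a34, chr4:141623797-141623886, minus strand: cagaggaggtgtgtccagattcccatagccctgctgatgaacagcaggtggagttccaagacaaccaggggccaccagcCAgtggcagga
Slc25a22, chr7:141435327-141435416, minus strand: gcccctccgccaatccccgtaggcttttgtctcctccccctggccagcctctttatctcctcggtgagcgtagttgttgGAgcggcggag
Slc25a33, chr4:149774218-149774304, minus strand: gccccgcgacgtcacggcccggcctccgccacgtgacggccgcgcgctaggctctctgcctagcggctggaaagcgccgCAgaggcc
Slc25a17, chr15:81360756-81360845, minus strand: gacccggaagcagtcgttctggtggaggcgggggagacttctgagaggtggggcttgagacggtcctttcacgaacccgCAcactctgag
Slc25a20, chr9:108662094-108662183, plus strand: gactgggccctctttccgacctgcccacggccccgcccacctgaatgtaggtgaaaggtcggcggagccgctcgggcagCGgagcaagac
Slc25a1, chr16:17928171-17928260, minus strand: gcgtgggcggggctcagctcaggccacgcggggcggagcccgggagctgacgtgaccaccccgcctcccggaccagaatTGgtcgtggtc
Slc25a25, chr2:32424017-32424101, minus strand: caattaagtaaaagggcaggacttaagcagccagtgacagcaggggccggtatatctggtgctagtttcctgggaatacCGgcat
Slc25a10, chr11:120491798-120491886, plus strand: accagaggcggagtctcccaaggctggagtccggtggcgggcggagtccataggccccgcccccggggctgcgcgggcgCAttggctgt
Slc25a4, chr8:46211021-46211110, minus strand: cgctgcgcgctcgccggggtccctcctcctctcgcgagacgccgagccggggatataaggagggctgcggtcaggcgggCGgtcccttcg

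These promoters were rich in G and C. The windows of Slc25a5, Slc25a11 and Slc25a12 are included, although the peaks of these clusters lay downstream of them (55, 54 and 199 bp after the RefSeq start). The median GC content of the 23 windows was 60.7%, against 62.3% for windows of the table that hold the peak of a cluster and 52.7% for all 32851 windows. The GC box (GGGCGG, either strand) was found in 22 of the 23 windows, against 69.8% of windows with a cluster peak, and the CCAAT box (CCAAT, either strand) in 14, against 38.8%. The TATA box letters TATAAA were in none of the 23 and in 8.0% of windows with a cluster peak. This exact search misses variants, such as the letters TATAAG, which can be read upstream of the marked pair in the Slc25a4 sequence above. How often such variants occur in all windows was not counted. The E-box CACGTG was in 3 (Slc25a1, Slc25a33 and Slc25a36; 10.8% of windows with a cluster peak), and the Slc25a33 copy can be read in the sequence above, beginning 51 bases before the marked base. The cyclic AMP element TGACGTCA was in the windows of Slc25a25 and Slc25a36 (3.8%), and the NRF1 letters (GCGC, any 2 bases, GCGC) in those of Slc25a3 and Slc25a10 (16.1%). The letters searched for ERR (TNAAGGTCA), FOXO (GTAAACA) and SREBP (TCACNCCAC), on both strands, were in none of the 23 windows and in 0.6, 2.6 and 1.3% of windows with a cluster peak. Matches of different motifs were counted separately even where they overlap. Slc25a22 and Slc25a25 each have 3 starts in RefSeq, and their clusters sat at the middle start of Slc25a22 and the most downstream start of Slc25a25.

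In Pre muscle the family spanned more than 3 orders of level. Slc25a4, the ADP/ATP carrier of heart and muscle, stood first at 5867 ± 322 CPM (SD, n = 4), at the 99.9th percentile of all clusters. Slc25a3, which imports phosphate, followed at 787 ± 9.19, then the oxoglutarate/malate carrier Slc25a11 at 407 ± 17.8, the carnitine/acylcarnitine carrier Slc25a20 at 126 ± 3.87, and the aspartate/glutamate carrier Slc25a12 at 93.6 ± 2.77. The ranges of these 5 did not overlap with one another, and neither did those of Slc25a46, Slc25a39 and Slc25a16 below them. From Slc25a5 (28.3 ± 3.01) to Slc25a44 (13.2 ± 0.974) each cluster overlapped in range with the next. The lowest 2 were Slc25a25 at 4.80 ± 0.925 and Slc25a22 at 2.06 ± 0.784. The median member had 16.9 CPM, as did the median of all clusters. Slc25a4 alone supplied 74.8 to 77.0% of the family's tags in the 4 Pre libraries and 70.1 to 79.9% across all 28 libraries of the first run.

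Torpor entry was addressed by comparing Pre with Mid. Of the 30 members 10 were higher in Mid and 9 lower at an adjusted p below 0.05 (edgeR's quasi-likelihood test, Benjamini-Hochberg over all clusters), in a comparison where 30.2% of all clusters were called (15.4% higher and 14.8% lower). Without TMM scaling 4 members were higher and 6 lower. In 12 members the Pre and Mid libraries did not overlap, against 14.8% of all clusters. The members' median log2 fold change was 0.12, against 0.01 over all clusters. Changes ran from 2.21 for Slc25a34 to -1.43 for Slc25a1, so the family did not move as a block. By role, 4 of 5 carboxylate carriers fell (Slc25a1, Slc25a10, Slc25a11 and Slc25a12) while the glutamate carrier Slc25a22 rose. Without TMM scaling the calls of Slc25a11 and Slc25a12 were lost. In the second run 2 of these 5 were called lower and 1 higher. Among 9 carriers of cofactors and metals 3 rose and 2 fell, and among 6 of adenine nucleotides and phosphate 1 rose and 1 fell. The 2 pyrimidine nucleotide carriers went opposite ways, Slc25a33 up and Slc25a36 down, as did the 2 members without a settled substrate, Slc25a34 up and Slc25a35 down.

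**Figure D1:**
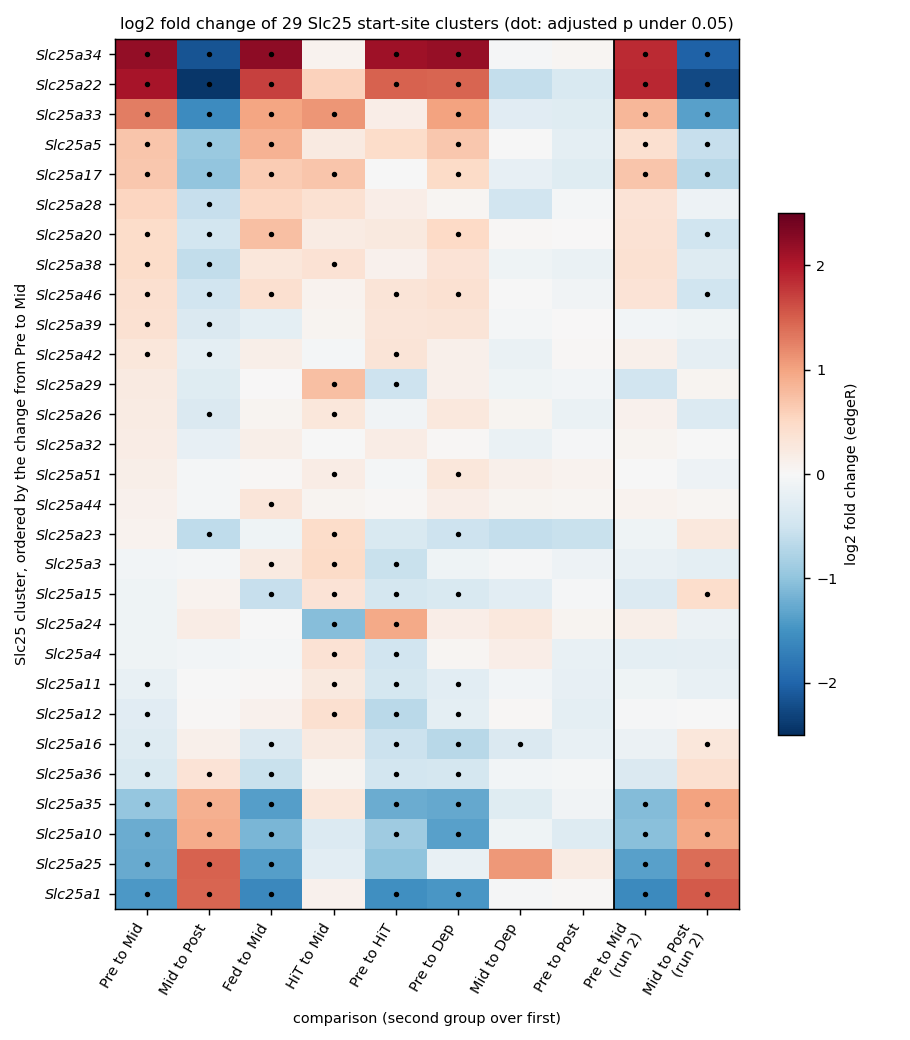
Each row is 1 of 29 Slc25 clusters and each column a comparison; color gives the log2 fold change of the second group over the first, and a dot marks an adjusted p below 0.05. The top rows (Slc25a34 to Slc25a17) and bottom rows (Slc25a35 to Slc25a1) hold the widest changes, and the Mid to Dep and Pre to Post columns hold 1 dot and none.

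Slc25a34, an inner-membrane carrier whose substrate is not settled, showed the widest rise. It had 13.7, 11.8, 13.6 and 18.4 CPM in the 4 Pre libraries and between 30.5 and 80.2 (median 71.4) in the 8 Mid libraries. Every Mid library was above every Pre library, and Mid 6 was far below the other Mid libraries, the next lowest of which had 57.8. The change was 2.21 ± 0.20 on the log2 scale (SE), a 4.61-fold rise (adjusted p = 3.2e-08). In Post it was back at 18.5, 14.9, 14.4 and 11.7 (Mid to Post -2.16 ± 0.20, adjusted p = 1.3e-08). It stood at 70.0, 57.8, 55.6 and 66.1 in HiT and at 56.2, 65.0, 74.5 and 63.7 in Dep, inside the range of Mid, but at 10.7, 14.9, 17.8 and 12.6 in Fed, inside or below the range of Pre. The level was thus high in all 3 fasted groups and low in all 3 groups with food.

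Slc25a22, which carries glutamate, was the lowest member in Pre at 1.95, 1.60, 1.501 and 3.20 CPM. In Mid it had between 3.76 and 12.98 (median 8.63), above every Pre library (2.05 ± 0.26, adjusted p = 2.5e-06). In TPM the Slc25a22 level of Mid 6 (2.98) lay below that of Pre 4 (3.35). In Post it fell by 2.43 ± 0.27 on the log2 scale to 1.25, 1.13, 2.33 and 1.65 (adjusted p = 2.0e-07). HiT had 5.90, 5.07, 5.84 and 6.14, above Pre (1.47 ± 0.28, adjusted p = 2.5e-04). The difference of HiT from Mid did not pass the test (0.58 ± 0.24, adjusted p = 0.053).

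Slc25a33, a carrier of pyrimidine nucleotides, differed from both of these in HiT. It had 14.3, 13.2, 14.97 and 11.1 in Pre, between 14.3 and 58.6 (median 32.4) in Mid, and 10.6, 11.7, 7.72 and 13.4 in Post. The Pre and Mid ranges overlapped through Mid 6 alone, since the other Mid libraries had at least 25.1. The rise was 1.27 ± 0.24 (adjusted p = 2.5e-04) and the fall in Post 1.57 ± 0.24 on the log2 scale (adjusted p = 2.0e-05). In HiT it had 17.6, 15.6, 16.3 and 10.5, lower than Mid (HiT to Mid 1.102 ± 0.24, adjusted p = 6.1e-04) and without a change from Pre past the test (0.17 ± 0.27, adjusted p = 0.65). In Dep it had 22.7, 23.3, 37.3 and 23.5, above every Pre library.

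Slc25a17, the peroxisomal cofactor carrier, was high in Mid with little scatter. It had 19.7, 17.02, 16.4 and 18.7 in Pre, between 22.3 and 33.1 (median 29.9) in Mid, 13.4, 14.3, 14.9 and 15.2 in Post, 18.96, 16.5, 16.7 and 19.1 in HiT, and 16.4, 19.6, 18.9 and 19.1 in Fed. After TMM scaling all 8 Mid libraries were above every library of Pre, Post, HiT and Fed. In TPM Mid 6 had 17.7, below Pre 1 (19.1) and HiT 1 (21.2). The changes were 0.67 ± 0.09 from Pre (adjusted p = 4.5e-06), 0.69 ± 0.09 from HiT (adjusted p = 1.4e-06) and 0.63 ± 0.09 from Fed (adjusted p = 8.1e-06). Dep lay above every Pre library and inside the range of Mid, at 22.6, 26.4, 27.7 and 23.3.

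Slc25a20 passes acylcarnitines into the matrix for oxidation. It had 127, 120, 128 and 128 in Pre, between 135 and 198 (median 183) in Mid, and 93.4, 96.2, 116 and 103 in Fed, so that Mid was above both groups in every library (0.46 ± 0.09 and 0.76 ± 0.10, adjusted p = 5.0e-04 and 1.4e-06). In TPM Mid 6 had 107, below every Pre library (118.5 to 133.7). Slc25a5, the ADP/ATP carrier of dividing and many other cells, rose by 0.69 ± 0.16 (28.3 ± 3.01 in Pre, 45.5 ± 9.13 in Mid, adjusted p = 0.0019), whereas Slc25a4 did not pass the test (-0.11 ± 0.11, adjusted p = 0.44). Slc25a5 has processed copies in the genome, so the assignment of its tags is less certain than that of the others. The outer-membrane protein Slc25a46, which shapes mitochondria, rose from 71.7 ± 3.25 to 94.2 ± 10.8 (0.39 ± 0.08, adjusted p = 3.4e-04). Without TMM scaling the Pre to Mid calls of Slc25a20, Slc25a5 and Slc25a46 were lost, while that of Slc25a20 from Fed to Mid was kept.

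The other 3 rises were 0.46 ± 0.12 for the glycine carrier Slc25a38, 0.38 ± 0.12 for the glutathione carrier Slc25a39 and 0.28 ± 0.09 for the coenzyme A carrier Slc25a42. All 3 calls were lost without TMM scaling. The call for Slc25a39 was also lost without Pre 2 or Pre 3 (adjusted p of 0.052 at most), and that for Slc25a42 without Pre 2 or Pre 4 (0.067 at most).

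**Figure D2:**
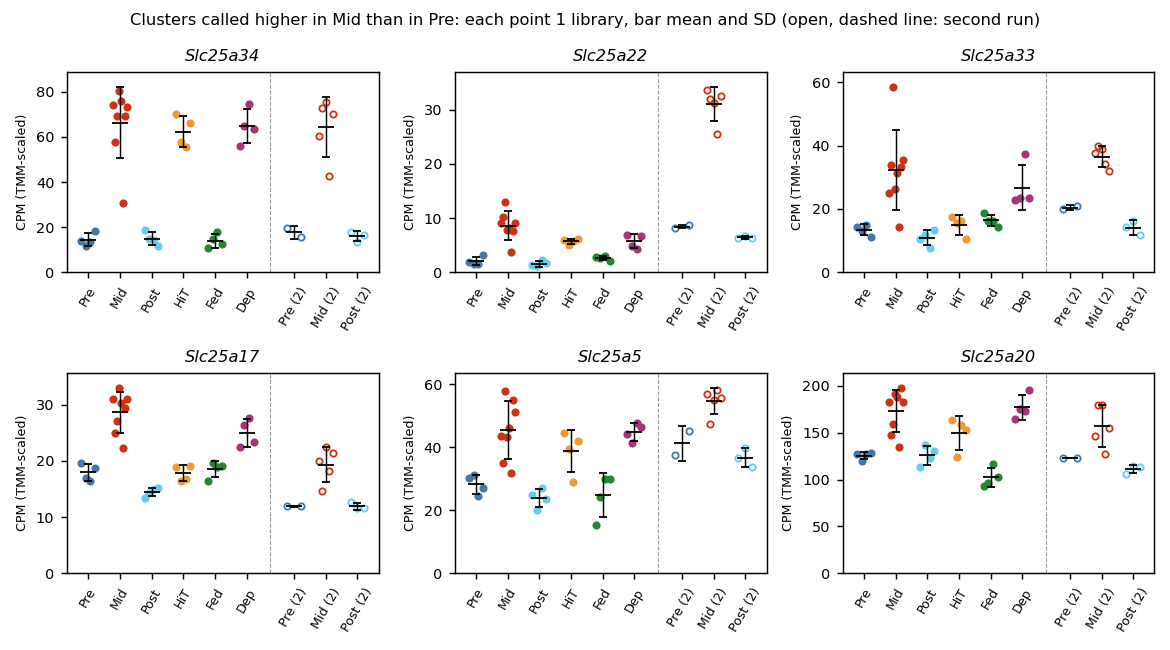
CPM (vertical axis, from 0) of 6 clusters called higher in Mid than in Pre, by group; each point is 1 library, the bar gives the mean and SD, and open points right of the dashed line are the second run. Slc25a34 was high in Mid, HiT and Dep (30.5 to 80.2) and low in Pre, Post and Fed (10.7 to 18.5), while Slc25a33 and Slc25a17 were low in HiT as well.

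Among the members that fell, Slc25a1, which exports citrate for cytosolic acetyl-CoA, fell the most. It had 35.2, 33.1, 19.9 and 18.9 in Pre and between 4.13 and 22.9 (median 9.53) in Mid. Only Mid 1 reached into the Pre range, the next highest Mid library having 11.7. The change was -1.43 ± 0.32 (adjusted p = 0.0012), and in Post the level was 24.7, 18.3, 38.2 and 28.1 (Mid to Post 1.46 ± 0.32, adjusted p = 8.2e-04). HiT (9.47, 9.82, 6.97 and 10.7) and Dep (9.69, 9.003, 14.4 and 5.86) were below every Pre library, and Fed (19.9, 40.2, 20.5 and 40.8) was not.

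Slc25a10, the dicarboxylate carrier, had 21.9, 21.0, 14.2 and 17.5 in Pre, between 5.95 and 13.1 (median 7.17) in Mid and 12.2, 10.4, 19.7 and 17.1 in Post. The change from Pre was -1.25 ± 0.20 with no overlap (adjusted p = 5.1e-05), and Mid 1 was again the highest Mid library. Mid 1 also had the highest summed level of the 7 adipocyte markers in Mid (1545 CPM, against a Mid median of 465), and the Pre range of that sum was 338 to 1090. The higher Slc25a1 levels of Pre 1 and Pre 2 came with sums of 1090 and 870, the lower ones of Pre 3 and Pre 4 with 338 and 430. In Fed 2 and Fed 4 it was 40.2 and 40.8 (sums 846 and 999.8), in Fed 1 and Fed 3 19.9 and 20.5 (279 and 460). Slc25a10 split the same way in both groups. In second-run Pre the order was opposite (Slc25a1 37.3 at 477 in Pre 5, 27.7 at 869 in Pre 6). In second-run Post Slc25a1 followed the sums, from Post 6 (17.7 at 447) through Post 7 (37.3 at 689) to Post 5, highest in both. In second-run Mid (Mid 10) and first-run Post (Post 3), HiT (HiT 4) and Dep (Dep 3), the library with the highest sum also had the highest Slc25a1 level. The other libraries of these groups did not follow the sums throughout (HiT 3 6.97 at 566, HiT 2 9.82 at 261). The cause of these differences between libraries was not tested. The 7 markers gave 0 calls up and 1 down from Pre to Mid. With the adipocyte marker level as a term in the fit (chosen after seeing the data), the changes from Pre to Mid were -1.28 for Slc25a1 (adjusted p = 4.0e-06) and -1.14 for Slc25a10 (adjusted p = 9.63e-06).

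Slc25a25, a calcium-dependent ATP-Mg/phosphate carrier, had 3.44, 5.49, 5.23 and 5.04 in Pre, between 1.03 and 3.88 (median 1.78) in Mid and 4.03, 5.89, 6.43 and 5.88 in Post. The change from Pre was -1.27 ± 0.45 (adjusted p = 0.032). Without any one of Pre 2, Pre 3, Pre 4, Mid 4, Mid 5, Mid 7 or Mid 8 the change was -1.24 to -1.17 and the adjusted p between 0.050 and 0.083. Dep had 1.92, 1.15 and 1.26 in 3 libraries and 12.5 in Dep 3, above every other library of the first run. Dep 3 also had the highest adipocyte marker sum of the run (1917). The part of these cells in the Slc25a25 level of Dep 3 was not tested.

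Slc25a35, like Slc25a34 a carrier without a settled substrate, went the other way. It had 5.75, 6.15, 5.15 and 6.33 in Pre, between 2.14 and 3.84 (median 3.08) in Mid and 4.64, 5.25, 6.88 and 5.27 in Post (-0.97 ± 0.15 and 0.88 ± 0.15, adjusted p = 3.3e-05 and 7.3e-05). HiT (2.47 ± 0.460) and Dep (2.41 ± 0.376) overlapped Mid, and Fed (8.63, 8.29, 6.29 and 7.98) had the highest levels of the run in 3 of 4 libraries. The pyrimidine nucleotide carrier Slc25a36 fell from 26.2 ± 3.09 to 20.1 ± 2.13 (-0.38 ± 0.11, adjusted p = 0.012, and 0.071 without Pre 4). Slc25a12, Slc25a16 and Slc25a11 fell by 0.28 ± 0.08, 0.32 ± 0.09 and 0.19 ± 0.06 on the log2 scale. Without TMM scaling the calls of Slc25a12, Slc25a16 and Slc25a11 were lost. That of Slc25a11 was also lost without any one of Pre 3, Mid 2, Mid 8, HiT 4 or Post 1 (adjusted p of 0.087 at most).

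**Figure D3:**
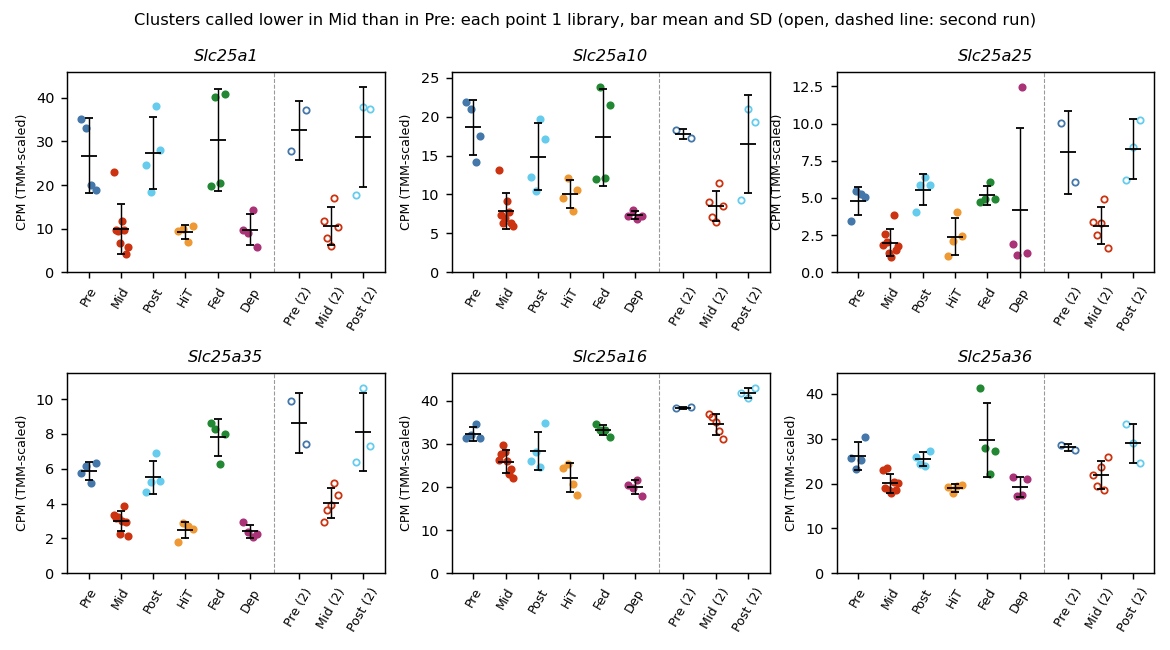
CPM (vertical axis, from 0) of 6 clusters called lower in Mid than in Pre, by group, with each point 1 library, bars for mean and SD, and open points for the second run. In Slc25a1 and Slc25a10 the highest Mid point is Mid 1 (22.9 and 13.1), and in Slc25a25 the lone high Dep point is Dep 3 (12.5).

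Recovery was addressed by comparing Mid with Post. Here 6 members rose and 13 fell, where 35.0% of all clusters were called (17.5% each way), and the members' median was -0.13 against -0.01 over all clusters. Without TMM scaling 5 rose and 7 fell. Among those that rose were Slc25a25 (1.48 ± 0.44), Slc25a1, Slc25a10 (0.92 ± 0.21), Slc25a35 and Slc25a36 (0.34 ± 0.11). The falls ran from 2.43 (Slc25a22) to 0.25 (Slc25a42) on that scale. Of the members not called from Pre to Mid, the calcium-dependent ATP-Mg/phosphate carrier Slc25a23 (-0.64 ± 0.16), the iron carrier Slc25a28 (-0.58 ± 0.23) and the S-adenosylmethionine carrier Slc25a26 (-0.36 ± 0.09) fell from Mid to Post. The call for Slc25a28 was lost in 15 of 28 fits that left out 1 library (adjusted p of 0.16 at most). The calls for Slc25a42 (without Mid 1, Mid 2, Mid 5, Mid 7, Mid 8, Post 1, Post 2 or Post 3), Slc25a39 (Post 1 or Post 3) and Slc25a36 (Post 4) were also lost, with adjusted p of 0.11, 0.083 and 0.065 at most.

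Pre and Post did not differ past edgeR's test in any member, in a comparison where 1.85% of all clusters were called (1.05% higher and 0.798% lower in Post). Unadjusted, 4 members had p below 0.05, DESeq2 called 0, and a fit of both runs with run as a term called 1. The ranges of Pre and Post did not overlap for 4 members, against 11.5% of all clusters, and the members' log2 fold changes ran from -0.56 to 0.21. These 4 were Slc25a3, Slc25a11, Slc25a12 and Slc25a17, all lower in Post. Slc25a11 and Slc25a12, called lower in Mid than in Pre, were not called from Mid to Post (-0.02 ± 0.06 and 0.04 ± 0.08).

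Fed and Mid mice were both kept at low temperature, with and without food. Of the members 9 were higher and 8 lower in Mid, where 35.2% of all clusters were called (16.6% higher and 18.6% lower). Without TMM scaling 6 were higher and 7 lower, and of all calls 23.3% instead of 47.1% were then higher. The groups did not overlap in 11 members (13.6% of all clusters). The widest were Slc25a34 (2.24 ± 0.20), Slc25a22 (1.71 ± 0.26), Slc25a33 (0.98 ± 0.24), Slc25a5 (0.86 ± 0.16) and Slc25a20 (0.76 ± 0.10) upward, and Slc25a1 (-1.61 ± 0.31), Slc25a35 (-1.38 ± 0.15), Slc25a25 (-1.38 ± 0.44) and Slc25a10 (-1.15 ± 0.20) downward. The ornithine carrier Slc25a15 was also lower in Mid than in Fed (-0.57 ± 0.12, adjusted p = 4.5e-04), and Slc25a44, which carries branched-chain amino acids, was higher (0.30 ± 0.08, adjusted p = 0.0050). The phosphate carrier Slc25a3 was higher in Mid (0.23 ± 0.07, adjusted p = 0.0096), a call lost without Fed 2 (0.16, adjusted p = 0.076). Of 7 red blood cell marker clusters 5 were called lower in Mid than in Fed and none higher, and the part of these cells in the Fed levels of the carriers was not tested.

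HiT mice were fasted in the warm, and HiT against Mid gave the most one-sided count. Of the members 12 were higher in Mid and 1 was lower, where 41.0% of all clusters were called (19.2% higher and 21.8% lower in Mid), and 5 members did not overlap (18.8% of all clusters). Without TMM scaling 7 members were called, 6 higher and 1 lower, and the median of all clusters then stood at 0.11 instead of 0.02. The members' median was 0.23 with TMM scaling and 0.32 without.

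Among these 13 were 4 of the 5 most abundant members, Slc25a4, Slc25a3, Slc25a11 and Slc25a12. Slc25a3 had 534, 529, 529 and 561 in HiT against 797, 780, 779 and 794 in Pre and between 684 and 822 (median 745) in Mid. All 4 HiT libraries were below every Pre and Mid library (Pre to HiT -0.55 ± 0.08, adjusted p = 4.4e-06; HiT to Mid 0.48 ± 0.07, adjusted p = 3.2e-06). Slc25a12 had 51.7, 58.2, 67.5 and 56.8 in HiT against 94.6, 93.4, 96.5 and 89.9 in Pre (-0.68 ± 0.09, adjusted p = 3.4e-06), and Mid lay at 64.5 to 85.7 (median 76.9), below every Pre library. Slc25a11 had 296, 297, 313 and 301 in HiT against 400, 406, 432 and 391 in Pre (-0.43 ± 0.07, adjusted p = 2.8e-05). Aralar (Slc25a12) and Slc25a11 are the pair of carriers of the malate-aspartate shuttle.

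Slc25a4 had 3944, 3586 and 3700 in HiT 1, HiT 2 and HiT 4 but 5716 in HiT 3, inside the Pre range of 5614 to 6326. The difference of HiT from Pre was -0.47 ± 0.12 (adjusted p = 0.0042) and that of Mid from HiT 0.36 ± 0.11 (adjusted p = 0.010), the second of which was lost without HiT 2 (0.28, adjusted p = 0.060) and with Mid 6 and HiT 4 left out together. The summed level of the family was 5789 ± 997 in HiT against 7743 ± 327 in Pre and 7347 ± 416 in Mid, and Slc25a4 made up 70.1 to 78.7% of it in HiT. The basic amino acid carrier Slc25a29 was also low in HiT (7.17 ± 1.45, against 10.2 ± 1.12 in Pre and 11.996 ± 1.83 in Mid; HiT to Mid 0.74 ± 0.14, adjusted p = 1.1e-04).

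In 1 member all 4 HiT libraries stood above all the others. Slc25a24, another calcium-dependent ATP-Mg/phosphate carrier, had 16.4, 16.96, 13.6 and 13.8 in HiT, above every other library of the first run, where the range was 5.68 to 9.78. In TPM HiT 4 had 8.97, below Mid 1 (9.38). The difference was 0.95 ± 0.14 from Pre (adjusted p = 1.0e-05), and Mid was lower than HiT by 1.06 ± 0.12 (adjusted p = 8.2e-08). Markers of another cell type moved with it. The 3 macrophage markers with a cluster (of 4, Adgre1 having none) summed to 41.8 to 94.0 CPM in HiT and to 14.8 to 35.5 in the other groups of the first run, and all 3 were called higher in HiT than in Pre. The summed slow fiber markers were 4900 to 6385 in HiT against 6501 to 7904 in Pre, with 3 of 18 clusters called lower and none higher, and of 17 clusters of fast fiber genes 6 were called lower and none higher. The part of these cells in the HiT levels of the carriers was not tested.

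**Figure D4:**
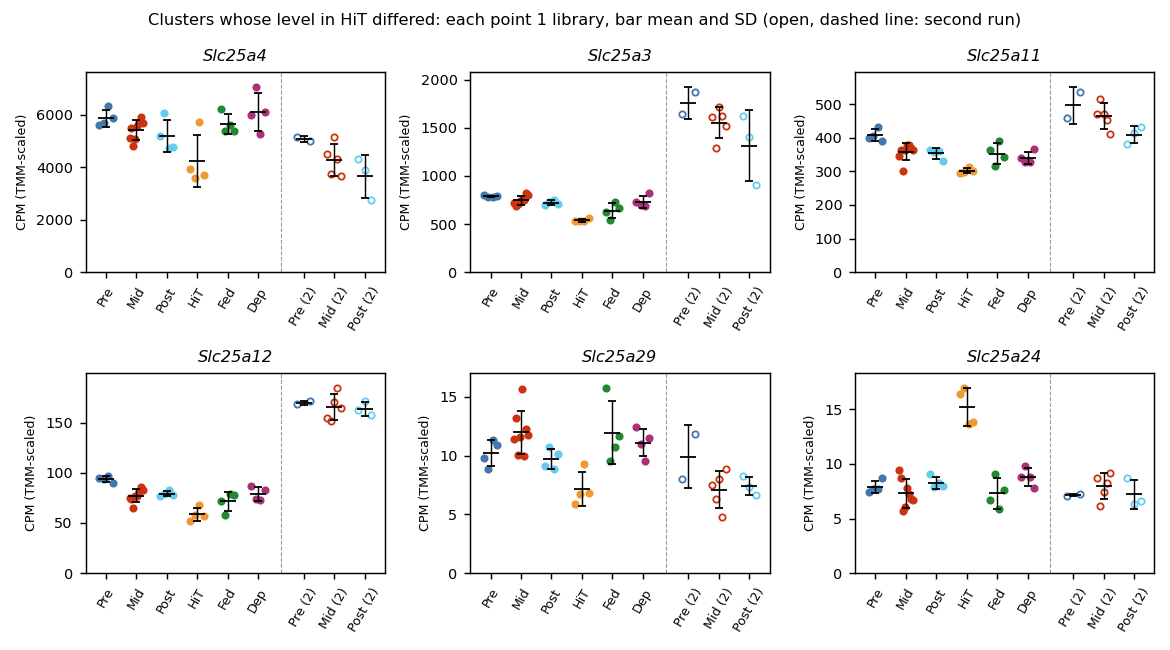
CPM (vertical axis, from 0) of 6 clusters whose level in HiT differed from Pre, by group, with each point 1 library, bars for mean and SD, and open points for the second run. HiT is the lowest group for Slc25a3, Slc25a11, Slc25a12 and Slc25a29, HiT 3 stands apart in Slc25a4 at 5716, and HiT is the highest group for Slc25a24 (13.6 to 16.96).

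Against Pre, HiT had 5 members higher and 12 lower, where 33.4% of all clusters were called (18.5% higher and 14.9% lower), and 15 members did not overlap (35.1%). Dep had 8 higher and 10 lower, where 25.8% were called (13.7% higher and 12.1% lower), and 17 did not overlap (30.9%). Without TMM scaling these were 3 and 11 for HiT and 2 and 7 for Dep. Both comparisons share the Pre libraries. In Dep the lower calls of Slc25a12 and Slc25a15 had an adjusted p of 0.0499 and 0.048. These were lost in 23 and 19 of 28 fits that left out 1 library. Slc25a34 gave 2.12 ± 0.21 in HiT and 2.17 ± 0.21 in Dep, Slc25a22 1.47 ± 0.28 and 1.45 ± 0.28, and Slc25a1 -1.54 ± 0.39 and -1.45 ± 0.39. Slc25a33 gave 0.17 ± 0.27 in HiT and 1.00 ± 0.27 in Dep (adjusted p = 0.0065), and Slc25a17 -0.01 ± 0.10 and 0.48 ± 0.10 (adjusted p = 0.0011). Slc25a5 gave 0.46 ± 0.18 (adjusted p = 0.052) and 0.67 ± 0.18 (adjusted p = 0.0074).

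Fed against Pre (a comparison added after seeing the data) gave 2 members higher and 2 lower, where 11.2% of all clusters were called (5.88% higher and 5.32% lower), and 7 did not overlap (17.8%). Slc25a39 (0.63 ± 0.14, adjusted p = 0.0099) and Slc25a15 (0.46 ± 0.14, adjusted p = 0.031) were higher in Fed, and Slc25a3 (-0.30 ± 0.08, adjusted p = 0.017) and Slc25a12 (-0.39 ± 0.09, adjusted p = 0.013) were lower. Without Fed 2 the call of Slc25a12 was lost (-0.30, adjusted p = 0.067), and those of Slc25a15 and Slc25a3 were lost without any one of 6 and 3 libraries, Fed 2 among them in both. Slc25a39 was highest in Fed 2, at 65.1, 81.0, 70.3 and 72.2 in the 4 Fed libraries. None of the 7 red blood cell marker clusters was called between Pre and Fed. With no TMM scaling no member was called.

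Torpor deprivation was addressed by Mid against Dep, in which 1 member was called, where 2.03% of all clusters were (1.16% higher and 0.872% lower in Dep). This was Slc25a16, which is held to carry coenzyme A, at 20.6, 19.8, 21.7 and 17.9 in Dep against 22.1 to 29.8 (median 26.1) in Mid. The groups did not overlap (for all clusters the share was 2.24%), and the change was -0.37 ± 0.09 (adjusted p = 0.040). The call was lost without any one of Mid 2, Mid 3, Mid 4, Mid 5, Dep 1, Dep 2 or Dep 4 (adjusted p of 0.058 to 0.13). For Slc25a34 the difference was -0.03 ± 0.18, for Slc25a33 -0.27 ± 0.23, for Slc25a17 -0.20 ± 0.09 and for Slc25a22 -0.60 ± 0.24, none past the test.

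The second run repeated Pre, Mid and Post in other mice. From Pre to Mid 5 members rose and 4 fell, where 9.74% of all clusters were called (5.3% higher and 4.44% lower), and 17 did not overlap (31.2%). These 9 were all among the 19 called in the first run and in the same direction, which is 100% of the second list and 47.4% of the first. For all clusters 84.2% of the second list and 27.2% of the first were shared. From Mid to Post 6 rose and 7 fell, where 16.4% of all clusters were called (7.73% higher and 8.65% lower), and 12 did not overlap (23.3%). Of these calls 11 were shared in the same direction, 84.6% of the second list and 57.9% of the first, against 83.9 and 39.4% for all clusters. None went the opposite way with a call in both. The 2 called in the second run alone were Slc25a15 (0.43 ± 0.12) and Slc25a16 (0.28 ± 0.07), both higher in Post, and these calls were lost without any one of 3 and 4 libraries (adjusted p of 0.14 and 0.096 at most).

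Slc25a34 and Slc25a22 changed in the same directions there. Slc25a34 had 15.5 and 19.8 in Pre, 72.8, 42.6, 60.5, 75.4 and 70.2 in Mid and 13.4, 17.9 and 16.6 in Post (1.86 ± 0.23 and -2.02 ± 0.20, adjusted p = 0.0015 and 1.2e-04). Slc25a22 had 8.66 and 8.20 in Pre, 32.03, 25.5, 33.7, 31.3 and 32.5 in Mid and 6.71, 6.38 and 6.26 in Post (1.88 ± 0.13 and -2.26 ± 0.11, adjusted p = 5.3e-05 and 2.1e-06). In both genes every Mid library was above every Pre and Post library.

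Slc25a33 gave 0.84 ± 0.14 from Pre to Mid, Slc25a17 0.70 ± 0.15, Slc25a5 0.40 ± 0.11, Slc25a1 -1.59 ± 0.35, Slc25a25 -1.36 ± 0.37, Slc25a35 -1.09 ± 0.26 and Slc25a10 -1.05 ± 0.28. With 2 Pre libraries these calls were not firm, since 3 members were called without Pre 5, 2 without Pre 6 and 5 without Mid 12. Post libraries shared a sequencing lane with Mid 13 only, and with lane as a term (chosen after seeing the data) 5 members were called from Mid to Post, 1 higher and 4 lower. The difference between the runs was itself tested with edgeR and gave 0 calls among the members and 0.0% of all clusters. Without adjustment 2 members passed p = 0.05 for Pre to Mid and 1 for Mid to Post, where the shares over all clusters were 4.76 and 5.2%. The lowest was Slc25a23 from Mid to Post, with -0.64 in the first run and 0.27 in the second (unadjusted p = 4.4e-04, adjusted p = 0.86).

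**Figure D5:**
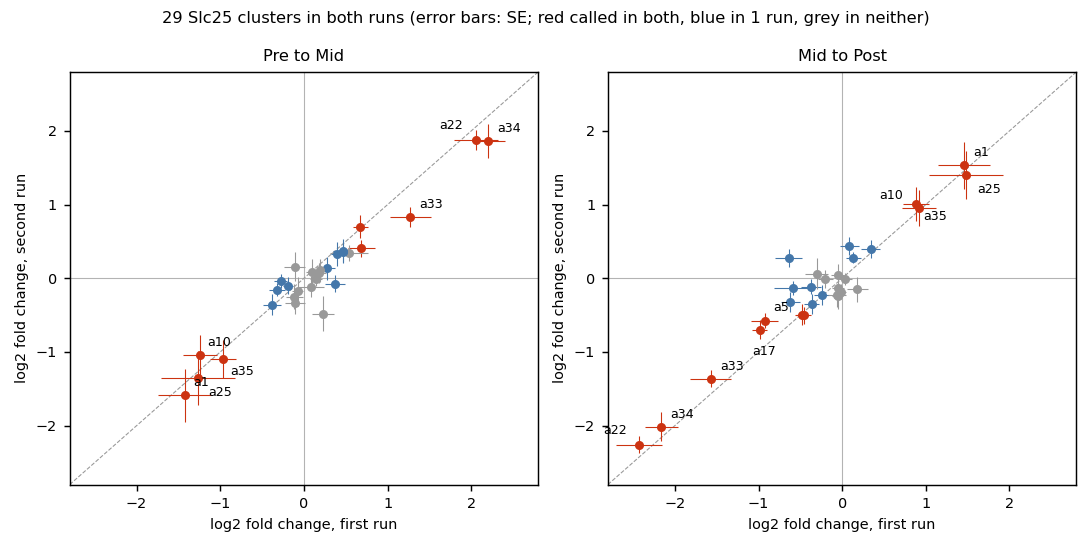
log2 fold change of 29 clusters in the first run (horizontal axis) and second run (vertical axis), with SE bars, for Pre to Mid and Mid to Post; red points were called in both runs, blue in 1 and grey in neither, and the dashed line marks equal values. The 9 red points on the left and 11 on the right have the same sign on both axes.

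Genes that work beside the carriers were taken from lists of 31 genes, 28 of which had a cluster. From Pre to Mid 6 of these 28 rose and 3 fell, where 30.2% of all clusters were called (15.4% higher and 14.8% lower). Ucp3, a family carrier named otherwise, rose from 11.98 ± 2.16 to 78.8 ± 26.6 (2.72 ± 0.27, adjusted p = 7.6e-08) and Ucp2 from 7.55 ± 0.885 to 14.1 ± 5.37 (0.90 ± 0.23, adjusted p = 0.0044). Of the carnitine shuttle partners of Slc25a20 with a cluster, Cpt2, which rebuilds acyl-CoA in the matrix, rose (0.35 ± 0.08, adjusted p = 0.0016), and 2 did not pass the test. Of the 10 genes that import and insert carriers 3 rose (Timm10 by 1.03 ± 0.17, Tomm40 by 0.30 ± 0.08, Timm8a1 by 0.37 ± 0.13) and 3 fell (Timm22, Timm10b and Tomm22, by 0.18 to 0.32 on the log2 scale). None of the 5 pyruvate carrier and porin genes, the 4 enzymes of the malate-aspartate shuttle or the 2 creatine kinases with a cluster was called.

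From HiT to Mid 13 of the 28 were higher in Mid and 2 lower, where 41.0% of all clusters were called (19.2% higher and 21.8% lower). All 4 malate-aspartate shuttle enzymes were higher, with Got1, the cytosolic aspartate aminotransferase, at 185 ± 22.9 in HiT and 371 ± 57.0 in Mid (1.00 ± 0.11, adjusted p = 1.1e-07). So were 4 of the 5 pyruvate carrier and porin genes (by 0.19 to 0.43) and both creatine kinases with a cluster (0.34 and 0.37), which move phosphate between ATP and creatine. Ucp2 and Timm10b were lower in Mid.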

How the data were processed

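Start-site tags of 38 soleus libraries were analysed from the table of clusters. Per the study's methods, reads were trimmed by the authors and aligned by BWA and HISAT2 (versions not given in the sources used here) to the mm10 assembly, and they grouped the 5′ ends into clusters with PromoterPipeline. The table deposited by the authors holds raw counts of tags per cluster, and beside them TPM values, the same tags scaled to each library's total. Reads were not filtered again here. All tests used the counts. TPM values served only for the share of tags in clusters and where they are named. CPM values were computed here from the counts, and each tag carries its strand.

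Clusters with any tag were fitted with edgeR 4.0.16 (quasi-likelihood F test, TMM factors, R 4.3.3), with all 28 first-run libraries in 1 fit (10776 clusters) and the 10 second-run libraries in another (10816). The script was tested on simulated counts with 200 of 10774 clusters changed for Pre to Mid. That is a far smaller share than the 30.2% called in the data. The rates depend on this share and need not hold for the data. Changes of 0.5 on the log2 scale were recovered in 52% and changes of 1 in 91%, with 5 and 14 false calls. Changes of 0.5 or less can thus be missed. An adjusted p (Benjamini-Hochberg over all clusters) below 0.05 was called. The standard error is the log2 fold change over the root of its F statistic. DESeq2 1.42.0 and the settings given in the closing section were alternatives. Groups came from sample titles. No per-sample column was left without a sample (0 columns). Replicates are separate mice, and no 2 libraries of a group agreed within sampling noise (lowest chi-square per cluster 12.4 over 72 pairs). Intervals are not given for single libraries, and counts measure counting error only. Samples were not pooled. Figures were drawn with matplotlib 3.10.9.

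Members, gene lists and tests were chosen with earlier results of these data known, so no list is independent evidence. Described in full were the members called from Pre to Mid and from Mid to Post in opposite directions, those called the same way against HiT and Fed, those called from Mid to Dep, and the 5 highest in Pre. Others named were chosen after their values were seen. Values of 1 member are not reported here, though it is in the counts. Promoter sequences are RefSeq's, GRCm38.p6.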

Additional observations from a re-analysis of the deposited data

Results flagged for a closer look

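In 12 of the 140 groups of described members, each of 4, 5 or 8 libraries, 1 library lay far from the others of its group by Dixon's test, which chance alone gives in about 1 of 20 groups (5%). Dep 3 was such a library for Slc25a25 at 12.5 CPM (next 1.92), for Slc25a33 at 37.3 (next 23.5) and for Slc25a38 at 16.7 (next 11.9). It had the highest adipocyte marker sum of the first run (1917), whose part in these values was not tested. Mid 1 was highest in its group for Slc25a1 at 22.9 (next 11.7) and for Slc25a10 at 13.1 (next 9.10), and also had the highest adipocyte marker sum in Mid (1545). Mid 6, with the lowest scaling factor in Mid, was low for Slc25a34 at 30.5 (next 57.8). It was also the lowest Mid library for Slc25a22 (3.76), Slc25a33 (14.3), Slc25a17 (22.3), Slc25a5 (31.9), Slc25a20 (135), Slc25a46, Slc25a38 and Slc25a42. For Slc25a39 Mid 8 was lower. Of the members that fell, it was the highest Mid library for Slc25a25 (3.88), Slc25a35 (3.84) and Slc25a11. It was not so for Slc25a1, Slc25a10, Slc25a12, Slc25a16 or Slc25a36. The cause was not tested.

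HiT 3 was high for Slc25a4 at 5716 (next 3944), and HiT 2 was low for Slc25a36 at 17.8 (next 19.3). Mid 3 was low for Slc25a11 at 300.3 (next 346.1), Pre 2 low for Slc25a20 at 119.8 (next 126.8), and Fed 3 high for Slc25a25 at 6.10 (next 4.95). Post 4 was high for Slc25a38 at 11.3 (next 8.63).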

How the results depend on the processing

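No call of a member reversed under any alternative run. Without TMM scaling the members called were 10 for Pre to Mid (4 higher, 6 lower, instead of 19), 12 for Mid to Post (5 and 7, instead of 19), 7 for HiT to Mid (instead of 13), 9 for Pre to Dep (instead of 18), 0 for Mid to Dep and 0 for Pre to Fed (instead of 4). That scaling also moved the median of all clusters, to 0.11 for HiT to Mid, -0.12 for Fed to Mid, -0.13 for Pre to HiT and -0.18 for Pre to Dep on the log2 scale, and the share of higher calls among all clusters from 51.0 to 36.6% for Pre to Mid, 46.8 to 56.5% for HiT to Mid, 47.1 to 23.3% for Fed to Mid, 57.1 to 77.8% for Mid to Dep, 55.4 to 29.6% for Pre to HiT, 53.1 to 25.3% for Pre to Dep, 52.5 to 33.3% for Pre to Fed and 47.2 to 62.2% for Mid to Post of the second run. Upper-quartile factors gave shares of 35.7% for Pre to Mid, 63.3% for Mid to Post (49.9% with TMM), 36.7% for Fed to Mid, 41.3% for Pre to HiT, 38.9% for Pre to Dep and 58.3% for Mid to Post of the second run. Other counts stayed within 1.5 times, except those that follow. The cause of these shifts was not tested.

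For Mid to Dep (1 call) DESeq2 gave 2, a fit of the compared groups alone 0, the replicate block 2, the same 24 libraries without it 3, leaving out Mid 6 and HiT 4 together 2, the adipocyte term 0, and leaving out 1 library 0 to 2. Pre to Post had 1 call with both runs in 1 fit (instead of 0). Pre to Fed had 2 with the compared groups alone and 1 to 6 on leaving out 1 library. In the second run Pre to Mid had 2 to 10 calls on leaving out 1 library (9 with all), and Mid to Post had 5 with lane as a term. Leaving out a library gave 16 to 21 calls for Pre to Mid, 16 to 20 for Mid to Post, 11 to 17 for HiT to Mid and 16 to 19 for Fed to Mid. Of 130 called member results, scaling without TMM lost 44.

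Replicate numbers are shared between groups but nothing ties them to a litter, batch or day. Deviations of same-numbered libraries had a median correlation of -0.10 over 60 pairs, 16 of them over 0.1, and 0 of 24 libraries correlated best with its own number. The fit with the replicate number as a block gave 18 members for Pre to Mid, 17 for Mid to Post, 14 for HiT to Mid, 17 for Fed to Mid, 17 for Pre to HiT and 18 for Pre to Dep. Slc25a4 was then not called from HiT to Mid (0.30, adjusted p = 0.10), nor in the same 24 libraries without the block. The other member rules gave the same 30 clusters. The planned balance of start sites within a gene was not run, since no family gene had 2 clusters. The lowest count of a member, 23 tags, limits the precision of Slc25a22 and Slc25a25 most.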
